A study of Paeonia lactiflora with 8 samples.

Results

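Among the small RNA sequences of the herbaceous peony Paeonia lactiflora, 38 of 270 different sequences carried the name of a less conserved microRNA family and were 20 nt or longer. They were chosen by name and length alone: the family number lay above 450, was not one of 13 excluded numbers, such as those of the widely shared miR482, miR827 and miR2118, and the sequence had at least 20 bases. The 38 sequences came from 40 of 304 deposited entries and covered 33 family numbers. The table comes from 8 small RNA libraries, 2 each from root, leaf and flower at blossom and from fruit at the young fruit stage, of plants for which the labels name no cultivar, genotype or treatment. Both libraries of a tissue are labelled biological replicates, and p-values measure the spread between these libraries. Fruit differed from the other tissues in stage as well as in organ, and the effects of the organ and of the stage cannot be told apart. The series set these tissues side by side because they differ in paeoniflorin, a monoterpene glucoside of peony root.

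A plant microRNA is cut from a hairpin precursor by a Dicer-like enzyme, is loaded into an Argonaute protein and guides it to matching messenger RNAs. Families shared by most land plants target conserved regulators of development, while families known from few species often arose recently, tend to be weakly expressed and in many cases have no described target. Short fragments of transfer and ribosomal RNA are of similar size and have entered microRNA catalogues under family names, so each name below is that of the best matching catalogue entry and not evidence of a functional microRNA in peony.

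The values are the authors' normalized read counts, called values from here on, each given for library 1 and then library 2 of a tissue. Library totals ran from 179334 in fruit 1 to 536567 in flower 2. The low values moved in steps that imply between 73898 reads, in root 2, and 724509 reads, in flower 2, and 3 reads were worth between 1.30, in flower 1, and 7.62, in root 2. A value of 0 therefore limits a level less tightly in root 2 than elsewhere, and these limits cover counting error only. The table lists microRNA sequences alone, so the labelled tissues could not be checked against marker genes, and fewer cells of a type and less of the RNA per cell cannot be told apart in such bulk samples.

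The 6 most abundant of the 38 sequences and 1 longer form of the fourth are shown because they held most of the reads. Each is written 5′ to 3′ as deposited, with T for U, and the capitals mark bases 2 to 8, called the seed here. The prefix of a name gives the catalogue species (gma soybean, peu and ptc poplars, vvi grapevine, hbr rubber tree), L and R stand for bases gained or lost at the 5′ and 3′ ends, ss for substitutions, and MIR with p5 or p3 marks an arm that the authors describe as newly observed.
gma-miR6300_R+5: gTCGTTGTagtatagtggtaagt
peu-miR2916_R-1_2ss6AG21TG: tGGGGGCTcgaagacgatcaga
peu-MIR2916-p3: tCAACCATaaacgatgccgacc
ptc-MIR6478-p5_1ss21GA: cCGACCTTagctcagttggtaga
ptc-miR6478_R+4_1ss21GA: cCGACCTTagctcagttggtagagc
vvi-miR3630-3p_L-1: tTGGGAATctctctgatgcac
osa-miR5083_L+4: aATCAGACtacaattatctgatca
The miR6300 sequence looks like the start of aspartate transfer RNA, the miR6478 pair like the start of tyrosine transfer RNA, and the miR2916 pair like stretches of nuclear small-subunit ribosomal RNA. These resemblances are background knowledge and were not checked against a reference.

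Taken as a group, these sequences held 6.93% of the mean total over the 4 tissues, and nearly all of it lay in a few of them. The 3 most abundant made up 87.7% of the group's summed mean value and the 8 most abundant 97.6%, while each of the other 30 reached at most 434 in any library. The median over the 38 of a sequence's mean value was 8.08, against 30.7 over the 140 other sequences of at least 20 nt.

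The share of a library's total held by the 38 was 5.06% and 4.15% in leaf, 6.56% and 24.7% in root, 4.64% and 7.07% in fruit, and 11.7% and 1.80% in flower. Root 2 and flower 1 stood highest and flower 2 lowest, and the 2 libraries of root, and those of flower, lay far apart. Leaving out miR6300 took root 2 to 9.23% and flower 1 to 3.33%. The 7 sequences listed here as resembling transfer or ribosomal RNA, the miR2916, miR6478 and miR6173 pairs with miR6300, held 74.7% to 95.5% of the group's sum in a library. The miR2916 pair was added to this list after its values were seen. The list was made by family name, and the other sequences were not searched for such a resemblance. The remaining 31 sequences together held between 0.357%, in leaf 1, and 1.17%, in root 2, of a library's total.

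**Figure D1:**
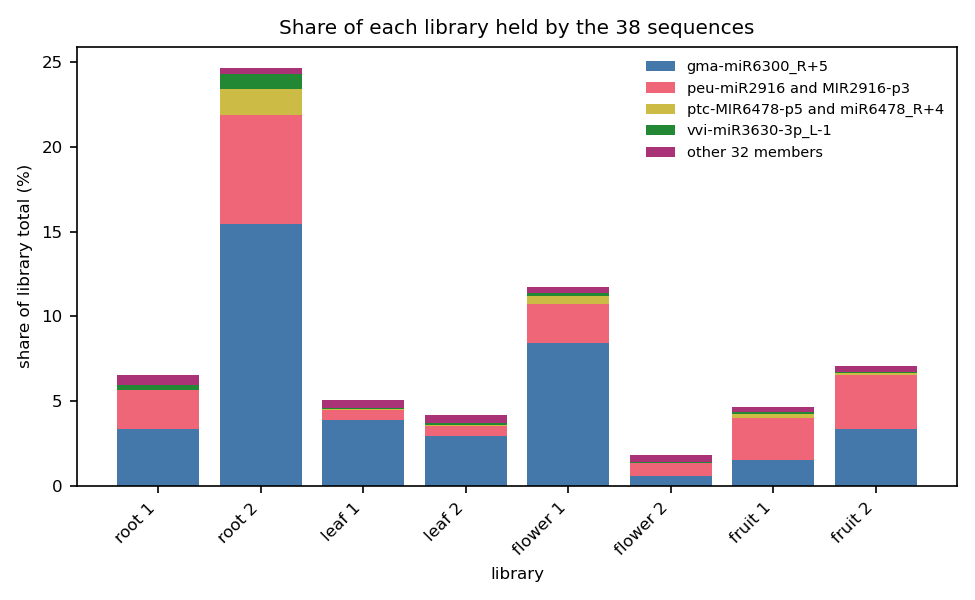
Share of each library's total value (percent, vertical axis) held by the 38 sequences in the 8 libraries, stacked by the most abundant sequence or pair. Root 2 reaches 24.7%, of which gma-miR6300_R+5 makes up most, and flower 2 reaches 1.80%.

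The most abundant sequence, gma-miR6300_R+5, was the seventh most abundant of the whole table. Its values were 10308 and 7257 in leaf, 8454 and 28999 in root, 2734 and 6239.9 in fruit, and 18850.1 and 3059 in flower. Flower overlapped with every other tissue and leaf with root, while fruit lay below leaf and root. Replicates differed 3.43-fold in root, 6.16-fold in flower, 2.28-fold in fruit and 1.42-fold in leaf. No difference between tissues passed the test, for which an adjusted p under 0.05 over the 216 sequences tested was needed (limma F test, adjusted p = 0.584). Within the table an 18-nt sequence, gma-MIR6300-p5, lies inside it, and the longer sequence was 317 to 1405 times as abundant in the 5 libraries that held both.

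The miR2916 pair came next and was lowest in leaf. The value of peu-miR2916_R-1_2ss6AG21TG was 856 and 741 in leaf, 3135 and 8266 in root, 2053 and 2283 in fruit, and 3554 and 3239 in flower. Those of peu-MIR2916-p3 were 797 and 595 in leaf, 2645 and 3817 in root, 2406 and 3576 in fruit, and 1627 and 838 in flower. Both leaf libraries lay below every other library for both sequences, although flower 2 came within a small margin of leaf 1 for the second. The mean of the other 3 tissues was 4.70-fold the leaf mean for the first and 3.57-fold for the second. On the log2(value + 1) scale leaf differed from the others by −2.07 ± 0.56 and −1.68 ± 0.54 (SE, n = 2 leaf libraries against 6), which did not pass the threshold (limma, adjusted p = 0.0838 and 0.119). The ratio of the first to the second ran from 0.639, in fruit 2, to 3.86, in flower 2, with a median of 1.22 over the 8 libraries.

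The miR6478 pair varied widely between replicates. The 23-nt ptc-MIR6478-p5_1ss21GA was 108 and 211 in leaf, 131 and 2589 in root, 332 and 299.7 in fruit, and 1065 and 56.3 in flower. Root 2 and flower 1, the libraries that also had most miR6300, were high, and replicates differed 19.8-fold in root and 18.9-fold in flower. The 25-nt ptc-miR6478_R+4_1ss21GA has the same 23 bases with 2 more at the 3′ end and was 0 and 7.42 in leaf, 0 and 295 in root, 47.5 and 12 in fruit, and 25.9 and 0 in flower. In the 5 libraries that held both, the shorter form was 7 to 41.1 times as abundant.

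The next 2 sequences differ from these in that no resemblance to transfer or ribosomal RNA is listed for them. The grapevine-named vvi-miR3630-3p_L-1 was 223 and 305 in leaf, 632 and 1689 in root, 182 and 106 in fruit, and 404 and 276 in flower. Both root libraries lay above all others and both fruit libraries below, the root mean being 8.06-fold the fruit mean. Against the other tissues root differed by 2.16 ± 0.64 and fruit by −1.69 ± 0.64 on the log2 scale, and neither passed (SE, n = 2 against 6, limma, adjusted p = 0.124 and 0.219). A 19-nt form inside it was found in all 8 libraries at 5.07 to 18.5, and the 21-nt form was 16.4 to 148 times as abundant. The rice-named osa-miR5083_L+4, of 24 nt, was 414 and 351 in leaf, 789.5 and 328 in root, 155 and 51.6 in fruit, and 388 and 149 in flower. Its root 1 library was highest and its fruit 2 library lowest, and flower and fruit overlapped at 149 and 155.

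**Figure D2:**
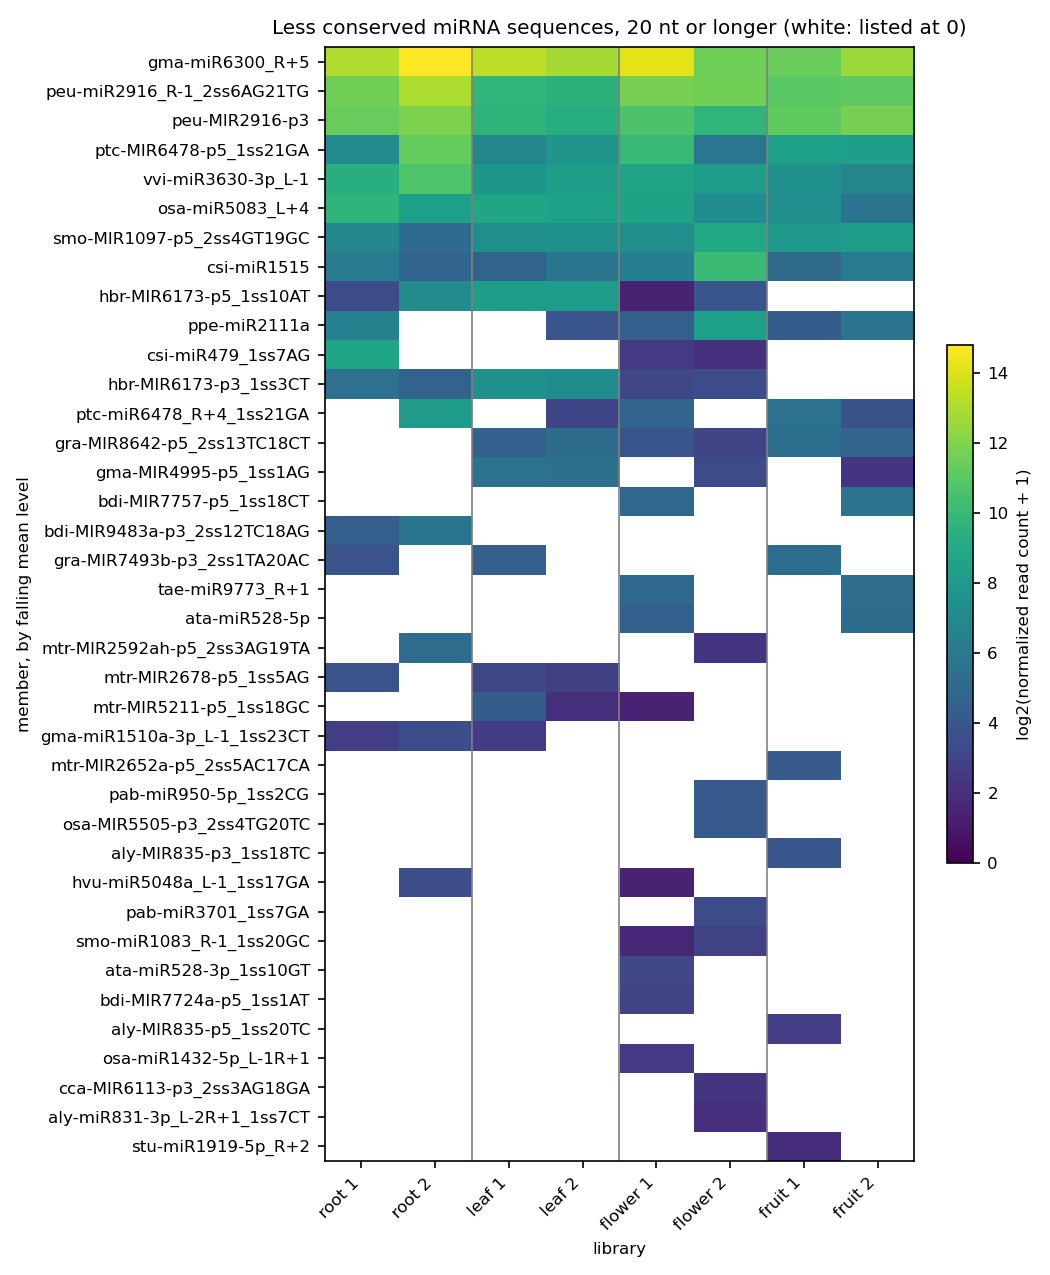
Heat map of log2(value + 1) for the 38 sequences (rows, most abundant at the top) in the 8 libraries (columns), with white for a value of 0. The 8 sequences at the top are above 0 in every library, and the lower rows are mostly white.

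Of the 38 sequences, 26 reached a value of 1 in 2 or more libraries and were tested with limma among 216 sequences of the table, and 12 were not tested. The F test for any tissue difference called 2 of the 26 at an adjusted p under 0.05, hbr-MIR6173-p3_1ss3CT and bdi-MIR9483a-p3_2ss12TC18AG, where 4.63% of all 216 were called. The second passed the filter only through the 2 root libraries where it was present, so neither this call nor its call in root is evidence of a tissue difference. At an unadjusted p under 0.05 the counts were 11 of the 26 and 31% of the 216 (limma). Each tissue was then set against the mean of the other 3. Root was higher in 1 sequence and lower in 1, where 0.926% and 2.31% of the 216 were called in these directions. Leaf was higher in 1, where 2.31% were called, and fruit was lower in 1, where 1.39% were called. The sequences called lower in root and in fruit were at 0 there and passed the filter only through the other tissues. These calls of a lower level are therefore not evidence of a tissue difference either. Flower had 0 calls by limma among the 26, where 1.85% of the 216 were called, all of them higher. Called at an unadjusted p under 0.05 were 8 of the 26 in leaf, 7 in root, 6 in fruit and 3 in flower, where 25%, 19.9%, 19.4% and 16.2% of the 216 were (limma). These counts are small and are close to those backgrounds. The median log2 difference over the 26 was 1.25 for root, −0.79 for leaf, −0.06 for flower and −0.79 for fruit, against −0.04, 0.15, 0.01 and −0.55 over all 216. The filter keeps a sequence for the tissue where it is present, so these medians describe the tested sequences only.

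The sequences called, or closest to a call, in a tissue are shown next.
hbr-MIR6173-p3_1ss3CT: aGTGCTGTagctaacgcgtta
hbr-MIR6173-p5_1ss10AT: gTAGTCCTatgccgtaaacga
gma-MIR4995-p5_1ss1AG: gACTCATAggcagtggcttggtt
gra-MIR8642-p5_2ss13TC18CT: tCCATTTCtattctggttgcc
bdi-MIR9483a-p3_2ss12TC18AG: tTGGCTACgttcggaaggga
smo-MIR1097-p5_2ss4GT19GC: aAATGAATcaacggcactctt
csi-miR1515: tCATTTTTgcgtgcaatgatcc
The miR6173 pair resembles small-subunit ribosomal RNA of plastids and bacteria, again as background. The prefixes gra, bdi, smo and csi stand for a cotton, the grass Brachypodium, the spikemoss Selaginella and sweet orange.

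The miR6173 pair was highest in leaf and listed at 0 in fruit. The value of hbr-MIR6173-p3_1ss3CT was 182 and 149.9 in leaf, 46.9 and 25.4 in root, 0 and 0 in fruit, and 7.78 and 10.4 in flower. The 4 tissues did not overlap and fell in the order leaf, root, flower and fruit, with a leaf mean 4.59-fold the root mean and 18.3-fold the flower mean. Tissue differences passed the F test (limma, adjusted p = 0.0305), leaf was higher than the other tissues by 4.55 ± 0.77 (adjusted p = 0.0423, limma) and fruit was lower, with a difference of −5.28 ± 0.77 on the log2(value + 1) scale (SE, n = 2 against 6, adjusted p = 0.0425, limma). Without any 1 of the leaf, flower or fruit libraries these calls were lost, and over the 8 leave-one-out fits the adjusted p ran from 0.0120 to 0.428 for leaf and from 0.0162 to 0.388 for fruit (limma). Both fruit libraries were at 0, and this sequence entered the tests only through the other tissues. Its fruit call is therefore described and is not evidence of a fruit pattern. The fruit difference depends on the pseudocount, being −2.41 with a pseudocount of 10, where its call was lost (limma, adjusted p = 0.141). Quantile normalization and the replicate block each ended all 3 calls (limma, adjusted p from 0.0530 to 0.0929). Scaling to equal totals ended the leaf call (0.0585) and the F test call (limma, adjusted p = 0.0524). With no filter the leaf call was lost (limma, adjusted p = 0.0511), and a pseudocount of 10 also ended the F test call (limma, adjusted p = 0.0547). Raising values below 7.62 to that value ended the fruit call (0.129) and the F test call (limma, adjusted p = 0.0565).

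Its partner hbr-MIR6173-p5_1ss10AT was 305 and 275 in leaf, 9.96 and 144 in root, 0 and 0 in fruit, and 1.73 and 14.8 in flower. Leaf was again highest, while root and flower overlapped and the root libraries lay far apart. Leaf differed by 5.51 ± 1.26 and fruit by −5.40 ± 1.26 on the log2 scale, and neither passed (SE, n = 2 against 6, limma, adjusted p = 0.0704 and 0.105). A 19-nt sequence of the same name outside the length limit, hbr-MIR6173-p5, has 9 bases in common with it and was 55.6 and 41.2 in leaf, 2.85 and 59.7 in root, and 0 in all flower and fruit libraries. Fruit thus held none of the 3 sequences under this name above 0, in libraries where 3 reads were worth 4.19 and 2.77.

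The soybean-named gma-MIR4995-p5_1ss1AG was also highest in leaf. It was 47.2 and 43.8 in leaf, 0 and 0 in root, 0 and 3.69 in fruit, and 0 and 9.63 in flower. Both leaf libraries lay above all others, and the leaf mean was 9.45-fold the flower mean. The log2 difference of leaf from the others, 4.60 ± 1.14, did not pass (SE, n = 2 against 6, limma, adjusted p = 0.0812).

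The 2 sequences called in root were opposite in pattern. The 20-nt bdi-MIR9483a-p3_2ss12TC18AG was 21.3 and 53.4 in root and 0 in the other 6 libraries, where 3 reads were worth 1.30 to 4.19. It passed the F test (limma, adjusted p = 0.0305) and was higher in root by 5.12 ± 0.58 (SE, n = 2 against 6, limma, adjusted p = 0.0140). Because it entered the tests only through these root libraries, its calls are described and are not evidence of a root pattern. The fitted difference depends on the pseudocount, being 2.16 with a pseudocount of 10, where the call was lost (limma, adjusted p = 0.0681). It was also lost with library weights (0.0767), with values raised to 7.62 (0.0729) and without either leaf or either fruit library (limma, adjusted p from 0.0410 to 0.0900 over the 6 leave-one-out fits that tested it). The F test no longer passed in any of these 6 fits, with no filter (0.0749) or with a minimum value of 10 (limma, adjusted p = 0.0621). Nor did it pass with a pseudocount of 10 (0.0547), quantile normalization (0.0562) or equal totals (limma, adjusted p = 0.0524). The replicate block (0.0929) and values raised to 7.62 (limma, adjusted p = 0.105) also ended it. It held with a pseudocount of 0.5, no trend, library weights, or every deposited entry tested.

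In contrast, gra-MIR8642-p5_2ss13TC18CT was 23.1 and 36.4 in leaf, 0 and 0 in root, 40.5 and 27.7 in fruit, and 13.4 and 7.41 in flower. Leaf and fruit overlapped, and flower lay below both. Root was lower, with a log2 difference of −4.49 ± 0.80 (SE, n = 2 against 6, limma, adjusted p = 0.0336), while the F test did not pass (limma, adjusted p = 0.0677). Both root libraries were at 0, and this sequence entered the tests only through the other tissues. Its root call is therefore described and is not evidence of a root pattern. The difference was −1.70 with a pseudocount of 10, where the call was lost (limma, adjusted p = 0.1199). It was also lost with quantile normalization, equal totals, library weights, the replicate block or values raised to 7.62 (limma, adjusted p from 0.0605 to 0.181), and without either leaf or either fruit library (limma, adjusted p from 0.0301 to 0.179 over the 8 leave-one-out fits).

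Neither of the remaining abundant sequences with tissues apart was called. The spikemoss-named smo-MIR1097-p5_2ss4GT19GC was lowest in root, at 115 and 35.6, against 166 and 176 in leaf, 243 and 286 in fruit, and 162 and 476.9 in flower. Both root libraries lay below all others, with a log2 difference of −1.84 ± 0.75 (SE, n = 2 against 6, limma, adjusted p = 0.244). The 22-nt csi-miR1515, whose family in soybean targets the Dicer gene DCL2, was 26.2 and 52.7 in leaf, 68.3 and 28.0 in root, 33.5 and 66.4 in fruit, and 83.4 and 1121 in flower. Flower 2 stood far above the other 7 libraries and flower 1 only slightly, a 13.4-fold spread within flower. The log2 difference of flower was 2.82 ± 1.12 (SE, n = 2 against 6, limma, adjusted p = 0.288).

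**Figure D3:**
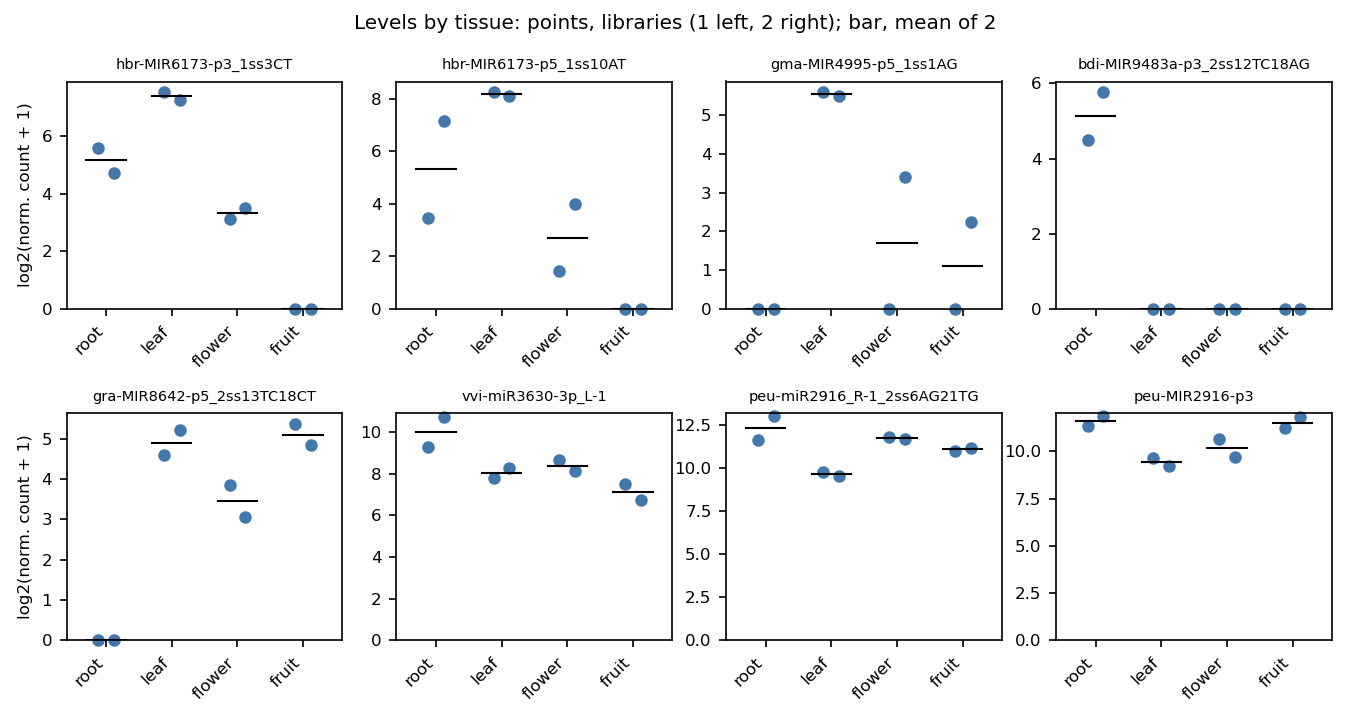
Values of 8 sequences in the 4 tissues, 1 panel each, with points for the 2 libraries of a tissue and a bar for their mean. In the panels of hbr-MIR6173-p3_1ss3CT and hbr-MIR6173-p5_1ss10AT leaf is highest and fruit is at 0, and bdi-MIR9483a-p3_2ss12TC18AG is above 0 in root alone.

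A list of 15 families with described targets in other plants, which did not include miR1515 or miR528, had 3 with a sequence here. None of these 3 sequences was called by limma, which at a share of 4.63% called among all 216 in the F test says nothing about them. They are shown with mtr-MIR2678-p5_1ss5AG, which lies close to an abundant microRNA.
ppe-miR2111a: tAATCTGCatcctgaggttta
csi-miR479_1ss7AG: tGTGATGTtggttcggctcatc
gma-miR1510a-3p_L-1_1ss23CT: tGTTGTTTtacctattccacct
mtr-MIR2678-p5_1ss5AG: tGCGGGTGtcttcacctctga
The peach-named ppe-miR2111a belongs to a family that in legumes moves from shoot to root and represses the Kelch F-box gene TML, a brake on nodulation. It was 0 and 14.1 in leaf, 93.9 and 0 in root, 19.5 and 51.6 in fruit, and 21.6 and 335 in flower. Flower 2 was highest, as for csi-miR1515, and every tissue overlapped with another. The orange-named csi-miR479_1ss7AG was 0 and 0 in leaf, 434 and 0 in root, 0 and 0 in fruit, and 4.75 and 2.96 in flower. Nearly all of it was thus in root 1, and root 2 listed it at 0 although 3 reads were worth only 7.62 there. The third, gma-miR1510a-3p_L-1_1ss23CT, whose family in soybean targets NLR immune receptor genes, was 5.24 and 0 in leaf, 5.69 and 10.2 in root, and 0 in fruit and flower. These are values of a few reads each.

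The last of these lay 1 base away from a far more abundant microRNA. The 21-nt mtr-MIR2678-p5_1ss5AG was 8.39 and 5.94 in leaf, 12.8 and 0 in root, and 0 in fruit and flower. It differs by T5G, counted from the 5′ end with the base of the other sequence first, from mtr-miR5213-5p_R-1_1ss2AG, a sequence outside the group. That sequence was 2353 and 1699 in leaf, 4893 and 999 in root, 78.9 and 148 in fruit, and 3267 and 7796 in flower. In the 3 libraries that held both, it was 281 to 382 times as abundant as mtr-MIR2678-p5_1ss5AG, while flower 2, where it was highest, listed mtr-MIR2678-p5_1ss5AG at 0.

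Most of the group was found in few libraries. Of the 38, 12 were above 0 in 1 library, 7 in 2 and 8 in all 8, so that 50% were found in 1 or 2 libraries, against 19.3% of the 140 other sequences of at least 20 nt. The median number of libraries was 2.5, against 6. The highest tissue mean lay in root for 12, leaf for 5, flower for 12 and fruit for 9. These are 31.6%, 13.2%, 31.6% and 23.7%, against 18.6%, 30%, 27.9% and 23.6% of the 140 others. The flower and fruit counts include 3 sequences found in flower 1 alone, 5 in flower 2 alone and 4 in fruit 1 alone.

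**Figure D4:**
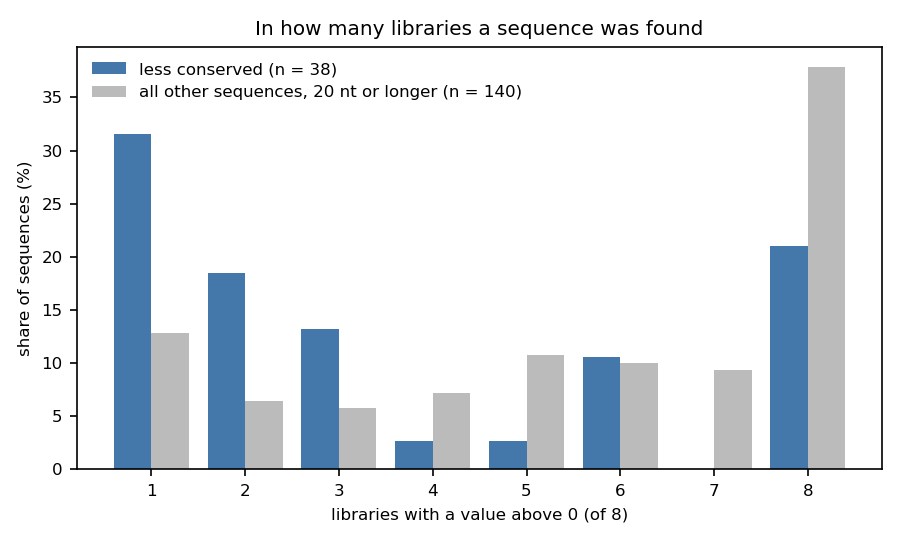
Percent of sequences (vertical axis) by the number of libraries in which they were above 0 (horizontal axis), for the 38 sequences and for the 140 other sequences of at least 20 nt. In 1 library there are 31.6% of the 38 and 12.9% of the others, and in all 8 libraries 21.1% and 37.9%.

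The 12 sequences of a single library had values of 2.79 to 18.1, and 6 of them lay at or below 7.62, the value of 3 reads in the shallowest library. Flower 2 alone held 5, fruit 1 alone held 4 and flower 1 alone held 3. The highest were mtr-MIR2652a-p5_2ss5AC17CA, at 18.1 in fruit 1, and pab-miR950-5p_1ss2CG and osa-MIR5505-p3_2ss4TG20TC, both at 17.0 in flower 2. Both sequences named after Norway spruce, pab-miR950-5p_1ss2CG and pab-miR3701_1ss7GA, the latter at 9.63, were found in flower 2 alone. Fruit 1 alone held aly-MIR835-p3_1ss18TC at 14.7 and aly-MIR835-p5_1ss20TC at 5.58, a pair of TA repeats in which the shorter lies inside the longer.

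A set of 3 sequences with names from grasses was found in flower 1 and fruit 2 and nowhere else. They are shown with these shared libraries in mind.
bdi-MIR7757-p5_1ss18CT: cACAAAACcttcagctatcca
tae-miR9773_R+1: tTTGTTTTtatgttattttgtgaag
ata-miR528-5p: tGGAAGGGgcatgcagaggag
The family of miR528 is known from monocots, and in rice it targets an ascorbate oxidase gene. Its 21-nt ata-miR528-5p, an exact match to the goatgrass entry, was 23.3 in flower 1 and 36.9 in fruit 2. The Brachypodium-named bdi-MIR7757-p5_1ss18CT was 29.4 and 51.6, and the wheat-named tae-miR9773_R+1 was 30.2 and 38.7, in the same 2 libraries. All 3 were at 0 in flower 2 and fruit 1, the other replicates, so the pattern went with 1 library of each tissue and not with the tissue.

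The same libraries shared more of such names. Of all 270 sequences, 5 were found in flower 1 and fruit 2 only, all 5 with grass names, against 16.3% grass names among the 270. The remaining 2 were of conserved families, ata-miR168-3p_1ss6CG at 14.3 and 30.4 and bdi-miR393b-3p at 6.05 and 10.1, and fruit 2 was 1.28-fold to 2.13-fold flower 1 for the 5. A further 3 sequences of the group were found in flower 1 only, and all 3 had grass names: ata-miR528-3p_1ss10GT at 7.78, bdi-MIR7724a-p5_1ss1AT at 7.35 and osa-miR1432-5p_L-1R+1 at 4.75. This was not particular to the group, as 8 of all 9 sequences found in flower 1 only had grass names. Over the group, 10 of 38 had grass names, or 26.3%, against 16.3% of the 270. Of these 10, 9 were found in 1 or 2 libraries, as were 50% of the 38, the exception being osa-miR5083_L+4. The grouping by plant was made after the values were seen, and whether these reads came from peony was not tested.

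The other sequences of few libraries differed in where they were found. In root 1, leaf 1 and fruit 1, gra-MIR7493b-p3_2ss1TA20AC was 12.8, 21 and 40.5, and it was 0 in the second library of each of these tissues. An 18-nt form inside it, gra-MIR7493b-p5_1ss18AC, was also highest in these libraries, at 32.7, 32.0 and 41.9. The barrel-medic-named mtr-MIR2592ah-p5_2ss3AG19TA was 38.1 in root 2 and 3.70 in flower 2. Leaf held most of mtr-MIR5211-p5_1ss18GC, at 19.9 and 2.97, with 1.73 in flower 1. The barley-named hvu-miR5048a_L-1_1ss17GA was 10.2 in root 2 and 1.73 in flower 1, and smo-miR1083_R-1_1ss20GC was found in flower alone, at 2.16 and 6.67.

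In sequence, the group was less uniform in length than the 140 others of at least 20 nt. Of the 38, 8 were 20 nt, 15 were 21 nt, 8 were 22 nt, 4 were 23 nt, 1 was 24 nt and 2 were 25 nt long, so that 39.5% had the 21 nt typical of plant microRNAs, against 69.3% of those others. A 5′ T, which in plants favours loading into AGO1, was the first base of 24, or 63.2%, against 55% of the others. An arm that the authors describe as newly observed was the source of 19, or 50%, against 26.3% of the 118 other sequences that carry a catalogue name. Only 10 matched their catalogue entry without a substitution, 26.3% against 44.9% of these 118, while 19 had 1 and 9 had 2.

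Seeds were rarely shared within the group. The miR6478 pair shared its seed, as the printed sequences show, and so did the TA repeats of the miR835 pair. The third shared seed joined different family names, mtr-MIR5211-p5_1ss18GC and stu-miR1919-5p_R+2, which were not found in the same library.
mtr-MIR5211-p5_1ss18GC: tGTCGCAGgagtgatggcac
stu-miR1919-5p_R+2: tGTCGCAGatgactttcgccctt
The potato-named stu-miR1919-5p_R+2 was at 2.79 in fruit 1 alone, under the 4.19 that 3 reads were worth there, and was the least abundant of the 38.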

How the data were processed

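Small RNA libraries were made with a TruSeq kit and sequenced on a HiSeq instrument, and reads were cleaned with ACGT101-miR, which removed common RNA families including transfer and ribosomal RNA, per the labels' protocols. Per the file headers, each deposited value is a read count that the authors normalized, handled here as a signal. The formula, the aligner and the genome used were not given in the sources used here. Mapping was to miRBase hairpins, per the deposited legend.

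Entries with an identical sequence were counted once, under the first name. Sequences that reached 1 in 2 or more libraries were tested. A limma model (version 3.58.1, R 4.3.3) of log2(value + 1) had tissue as its only term, all 8 libraries and a mean-variance trend, giving 4 residual degrees of freedom. Each tissue was compared with the mean of the other 3, and p was adjusted by Benjamini-Hochberg over 216 sequences. The scripts were tested on simulated data. Steps in the low values were used only for depth: 75.7% to 83.2% of values above 0 were whole multiples of the step within 0.01, too few to recover read counts for a count model.

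The sequences, lists and tests were chosen with earlier results of these data known. Named were the 12 most abundant, those called, the 3 nearest to a call in each contrast and direction whose libraries did not overlap and whose higher mean was at least 10, close relatives of these, and 2 lists. Other sequences are named for their few libraries, chosen after their values were seen. Pseudocounts, filters, scalings, library weights, the replicate number as a block and leaving out each library were tried. The resemblance to transfer and ribosomal RNA was not checked against a reference.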

Additional observations from a re-analysis of the deposited data

How the results depend on the processing

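Counts of sequences called by limma were 2 in the test for any tissue difference, 1 in leaf, 2 in root, 1 in fruit and 0 in flower, with 11, 8, 7, 6 and 3 at an unadjusted p under 0.05, and they changed under most settings, for which the cause was not tested. A pseudocount of 0.5 gave 5 for any difference and 1 in flower. A pseudocount of 10 gave 0 for any difference, 0 in root and 0 in fruit, with 8, 7 and 5 at an unadjusted p under 0.05, and 2 in leaf. With no filter there were 1 for any difference and 0 in leaf, where 8 had an unadjusted p under 0.05, and with a minimum value of 10 there were 1 and 2. Quantile normalization gave 0 for any difference, 0 in leaf, 1 in root and 0 in fruit, and scaling to equal totals 0, 0 and 1 in the first 3 of these. In each of these tests with 0 calls, 3 to 8 sequences had an unadjusted p under 0.05. These scalings moved the median log2 difference of all sequences by 0.53 and 0.43 in fruit. Library weights gave 4 in leaf, 0 in root and 2 in fruit, with 3 in root at an unadjusted p under 0.05. Raising values below 7.62 to that value, chosen after seeing the data, gave 1 for any difference, 2 in leaf, 0 in root and 0 in fruit, with 7 in root and 6 in fruit at an unadjusted p under 0.05. Between tissues, the deviations of same-numbered libraries correlated at −0.20 to 0.24. With 1 replicate difference per tissue, this cannot decide whether the numbers pair the tissues. The replicate block gave 0 for any difference, 0 in leaf, 1 in root and 0 in fruit. Of these, the tests with 0 calls had 7, 7 and 5 at an unadjusted p under 0.05. Leaving out 1 library gave 0 to 6 for any difference, 0 to 5 in leaf, 0 to 5 in root, 0 to 4 in fruit and 0 to 2 in flower. The largest counts came without root 1 or root 2, where the calls for any difference over the whole table also rose, from 10 to 53 and 43, and the test for any difference had 0 calls, with 6 to 8 at an unadjusted p under 0.05, without any 1 of the other libraries. Summing every deposited entry, the share of the library total was 3.75% in leaf 1 and 3.32% in leaf 2, and without miR6300 it was 1.20% in leaf 1, 1.21% in leaf 2, 9.23% in root 2, 3.71% in fruit 2 and 3.33% in flower 1. Over all alternatives, 206 values for named sequences stayed on their side of the threshold, 61 no longer passed it, 14 newly passed it and 0 changed direction. All 61 belong to results called in the main fit. The 206 include results not called there, which had no call to lose, so they do not measure how stable the calls were. With 2 libraries a tissue and 3 reads worth up to 7.62, the absence of a rare sequence from a tissue cannot be shown.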
